A study of Mus musculus with 14 samples.

Results

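Arginine and polyamine metabolism was followed in mouse peritoneal macrophages through 10 genes: the transporters Slc7a1 and Slc7a2, the arginases Arg1 and Arg2, the inducible nitric oxide synthase Nos2, the citrulline recycling enzymes Ass1 and Asl, and the polyamine enzymes Odc1, Srm and Sms. They were found by matching the RefSeq accession of every array probe to these symbols. The match gave 16 probes, and the 10 genes were among 20346 genes that could be tested.

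RNA from cells of C57BL/6 mice sorted as positive for CD11b and for the macrophage surface receptor encoded by Adgre1 was hybridised to 14 single-dye arrays, 1 per sample. The mice had received an injection into the peritoneum. The PBS group (3 arrays) was given the vehicle, and the IL-4c group (4 arrays) was given IL-4 complex: 5 µg of IL-4 with 25 µg of 11B11, an antibody to IL-4 that prolongs its action. The Thio group (3 arrays) was given 2 ml of thioglycollate medium at 4%, an irritant broth that draws monocytes from the blood into the cavity, and the Thio+IL-4c group (4 arrays) was given both. The study set tissue-derived against monocyte-derived macrophages, and cells of the PBS and IL-4c groups are called resident here and those of the other groups elicited. The time from injection to harvest and the age and sex of the mice are not given in the sources used here. Nothing in the labels ties each array to an animal of its own, and p-values therefore describe the spread among these arrays, which may be technical.

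Arginine enters macrophages through cationic amino acid transporters and is then used along competing routes. Arginase splits it into urea and ornithine, and ornithine is turned by ornithine decarboxylase into putrescine, which the spermidine and spermine synthases extend, or it is converted to proline. Nitric oxide synthase instead makes nitric oxide and citrulline, and argininosuccinate synthase and lyase rebuild arginine from citrulline. In mouse macrophages IL-4 is known for raising arginase 1, and microbial products with interferon are known for raising inducible nitric oxide synthase.

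A level below is the log2 of a probe's processed intensity minus the log2 of the 75th percentile of that intensity on the same array, so a difference of 1 is a factor of 2. Levels of different genes come from different probes and are not set against each other. A gene was called when the adjusted p of limma, two-sided and adjusted by Benjamini-Hochberg over all 20346 genes of a comparison, was under 0.05, and errors are the SE of that fit. In RNA from sorted pools, a change in the number of cells that carry a transcript and a change in the RNA per cell cannot be told apart.

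The 75th percentile of intensity ran from 1275 to 3883 between arrays, and 79.1% to 95.6% of probes were well above background, which is the scanner software's own mark. In resident cells brightness moved with treatment, at 1275 to 1819 in PBS and 3059 to 3883 in IL-4c, while Thio (2294 to 3578) and Thio+IL-4c (2044 to 2549) overlapped. The part of brightness in the results was not tested. The array Thio 1 stood apart: across genes it correlated with Thio 2 and Thio 3 at 0.848 and 0.865 and with the PBS arrays at 0.917 to 0.931. It shared slide 1 with all PBS and IL-4c arrays, while Thio 2, Thio 3 and all Thio+IL-4c arrays were on slide 2. Results that rest on the Thio group are therefore given with and without Thio 1, and, where slide changes them, with slide as a block. That block compares PBS with Thio 1 alone, and Thio+IL-4c with Thio 2 and Thio 3 alone. It links Thio+IL-4c to IL-4c only through the Thio group, in which Thio 1 is the single array on slide 1, so each blocked value of that comparison rests on Thio 1 and supports nothing by itself. Without Thio 1, elicitation and slide cannot be told apart.

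The macrophage genes Adgre1, Itgam, which encodes CD11b, and Csf1r were well above background on all 14 arrays. The level of the macrophage list as a whole moved with the groups: the log2 sum over its 7 markers was 9.48 to 9.70 in PBS, 7.90 to 7.95 in IL-4c, 7.80 to 8.25 in Thio and 7.09 to 7.33 in Thio+IL-4c. Of these 7 markers 5 were called lower in IL-4c than in PBS, and at least 6 were well above background on every array. On the log2 scale, the summed level of 8 markers of resident peritoneal macrophages was 9.03 to 9.20 in PBS and 7.59 to 7.76 in IL-4c, against 0.52 to 1.28 in Thio and 2.57 to 3.16 in Thio+IL-4c. All 8 were well above background on every array of PBS, IL-4c and Thio, and at least 7 on those of Thio+IL-4c. Markers of several other cells moved with the groups too. The sum over 8 B cell markers was 3.26 to 4.17 in PBS and 1.59 to 1.77 in IL-4c, with all 8 well above background on every array. The sum over 8 neutrophil markers was 0.66 to 0.77 in PBS, -0.09 to 2.10 in IL-4c, 2.34 to 2.83 in Thio and 2.91 to 4.00 in Thio+IL-4c. That over 9 mesothelial and stromal markers was 0.39 to 0.55 in PBS, -0.41 to -0.20 in IL-4c, 1.52 to 2.07 in Thio and 1.14 to 1.32 in Thio+IL-4c. The sum over the 5 monocyte markers with a value on every array was 3.05 to 3.43 in PBS, 2.50 to 2.88 in IL-4c, 2.68 to 2.90 in Thio and 4.42 to 4.90 in Thio+IL-4c. Over 5 dendritic cell markers the sum was 1.94 to 2.30 in PBS, 2.78 to 3.01 in IL-4c, 1.09 to 1.48 in Thio and 1.89 to 2.56 in Thio+IL-4c. Over 6 mast cell markers it was 2.63 to 2.92, 1.69 to 1.84, 0.93 to 2.17 and 0.61 to 1.01 in the same order. Over 8 T and NK cell markers it was 3.77 to 3.93, 3.20 to 3.32, 3.31 to 3.72 and 3.53 to 3.92. Over 6 eosinophil markers it was 1.23 to 1.40, 1.08 to 1.23, 0.67 to 1.44 and 1.19 to 1.89, ranges that overlapped between all groups. The part of all these markers in the results was not tested.

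In resident cells IL-4c raised transcripts of arginine transport, arginase 1, argininosuccinate synthase and the first steps of polyamine synthesis. Arg1, Slc7a1, Slc7a2, Ass1, Odc1 and Srm were called higher in IL-4c than in PBS, so 6 of the 10 genes rose and none fell, where 32.2% of all genes were called, 16.9% higher and 15.3% lower. On the log2 values that the authors deposited 8 passed, beside 39.1% of all genes. Asl was added above, and Arg2 as a difference between groups that are both below background, from which no fall can be read. The largest rises were those of Slc7a2 (26.2-fold) and Arg1 (16.7-fold), ranked 44 and 82 from the top of 20346 genes. The median difference of the 10 genes was 1.10, beside -0.01 over all genes. The arrays of both groups did not overlap for 7 of the 10 genes, beside 53.3% of all genes.

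The same 6 genes were called higher when elicited cells were given IL-4c. Of the 10 genes 7 rose and 1 fell in Thio+IL-4c against Thio, where 39.4% of all genes were called, 16.2% higher and 23.1% lower. The seventh was Nos2, whose call did not outlast the removal of Thio 1, and the gene that fell was Asl. Without Thio 1, 7 genes were called, 6 higher and 1 lower, beside 42% of all genes. Slc7a2 rose 32.3-fold and Arg1 12.6-fold, ranked 30 and 79 from the top. The median difference of the 10 genes was 1.22, beside 0.03 over all genes, and the arrays did not overlap for 8 genes, beside 44.6% of all genes.

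**Figure D1:**
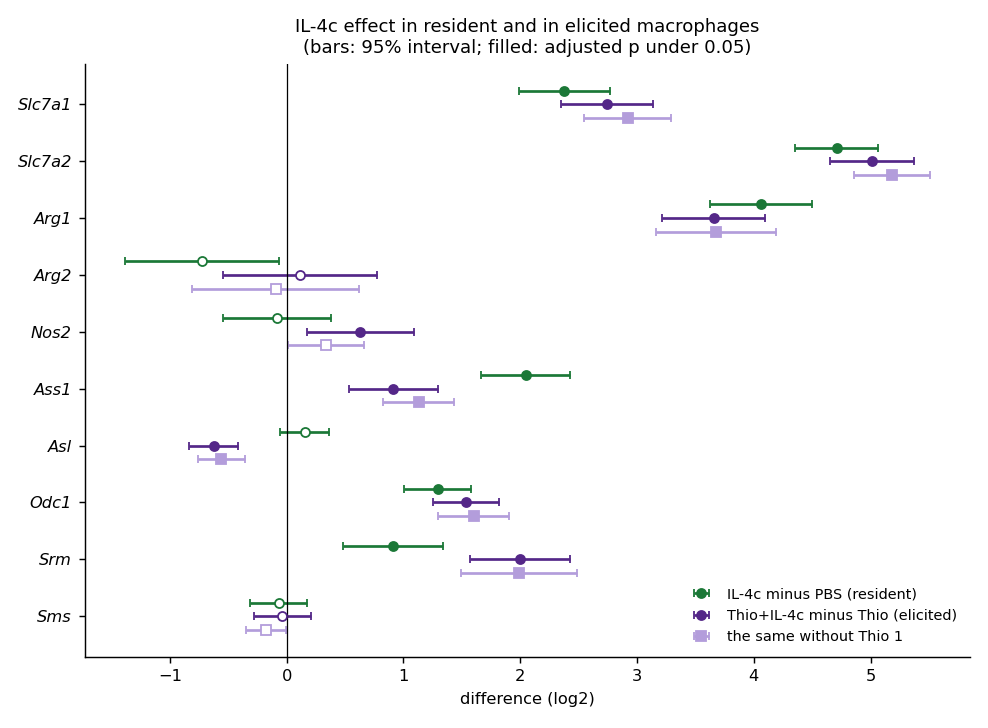
Log2 difference made by IL-4c (horizontal axis) for each of the 10 genes, in resident cells (IL-4c minus PBS, 4 against 3 arrays) and in elicited cells (Thio+IL-4c minus Thio, 4 against 3 arrays, and again without Thio 1). Bars are 95% intervals of the limma fit and filled points have an adjusted p under 0.05; the intervals of Ass1, Asl and Srm in resident and elicited cells do not meet, while those of Arg1, Slc7a1, Slc7a2 and Odc1 do.

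The IL-4c effect differed between elicited and resident cells for 3 of the 10 genes, 1 larger in elicited cells and 2 smaller, where 32.7% of all genes were called, 12.7% larger and 19.9% smaller, so the count is at the background and is no result about the 10 genes together. The test was the interaction, which is the effect in elicited cells minus that in resident cells. It was 1.09 for Srm (SE 0.28, limma adjusted p = 0.0097), -1.14 for Ass1 (SE 0.25, adjusted p = 0.0039) and -0.78 for Asl (SE 0.14, adjusted p = 0.00097). All 3 kept their calls without Thio 1 (adjusted p of 0.014, 0.0024 and 0.00081), where 40.1% of all genes were called. With normexp background correction and quantile normalization 5 genes were called, 3 larger and 2 smaller, Slc7a1 and Odc1 being added, beside 33.5% of all genes. On the log2 values that the authors deposited 4 were called, 1 larger and 3 smaller, beside 44.5% of all genes, and Srm was not among them.

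The bases upstream of the annotated gene start are shown for Slc7a1, Odc1 and Ass1, which rose with IL-4c in resident and in elicited cells, and for Sms, whose brightest probe did not. No upstream sequence was available for Arg1, Arg2, Nos2, Slc7a2, Asl and Srm, so theirs were not searched. The motif search therefore leaves out Slc7a2 and Arg1, which rose most with IL-4c. They are RefSeq sequences of GRCm38.p6, read 5′ to 3′ on the gene's strand and ending at the base before the start: chr5:148399905-148400154 (minus strand) for Slc7a1, chr12:17544623-17544807 (plus strand) for Odc1, chr2:31470020-31470269 (plus strand) for Ass1 and chrX:157492288-157492537 (minus strand) for Sms. Capitals mark the GC box GGGCGG, a motif of Sp family factors, and the E-box CACGTG, a motif of Myc and related factors, each searched on both strands.
Slc7a1: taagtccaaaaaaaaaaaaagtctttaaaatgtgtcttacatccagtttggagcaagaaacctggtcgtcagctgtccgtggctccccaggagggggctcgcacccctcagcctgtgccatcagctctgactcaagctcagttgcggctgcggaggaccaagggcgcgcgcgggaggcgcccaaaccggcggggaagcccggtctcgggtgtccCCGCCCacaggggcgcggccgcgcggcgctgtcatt
Odc1: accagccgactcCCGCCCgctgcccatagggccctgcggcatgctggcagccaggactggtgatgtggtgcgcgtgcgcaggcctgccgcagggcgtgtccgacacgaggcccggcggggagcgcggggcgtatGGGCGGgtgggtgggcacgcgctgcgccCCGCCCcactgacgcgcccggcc
Ass1: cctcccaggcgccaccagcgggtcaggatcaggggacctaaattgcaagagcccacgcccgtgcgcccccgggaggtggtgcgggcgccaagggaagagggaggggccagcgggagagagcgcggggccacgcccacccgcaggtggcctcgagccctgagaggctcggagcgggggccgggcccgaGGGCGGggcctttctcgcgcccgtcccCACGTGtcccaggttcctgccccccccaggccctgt
Sms: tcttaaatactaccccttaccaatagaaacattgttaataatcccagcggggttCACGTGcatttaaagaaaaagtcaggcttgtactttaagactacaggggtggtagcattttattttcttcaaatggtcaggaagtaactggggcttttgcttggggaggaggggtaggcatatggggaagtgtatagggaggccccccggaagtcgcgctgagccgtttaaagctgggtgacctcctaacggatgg

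The GC box occurred once upstream of Slc7a1, 36 to 31 bases before the start, once upstream of Ass1, and 3 times upstream of Odc1. It was present in 32.7% of 32851 mouse promoters over the 250 bases before the start. The E-box was found upstream of Ass1, 36 to 31 bases before the start, and of Sms, 196 to 191 bases before it, and was present in 6.02% of promoters. The STAT6 site, which is TTC and GAA with 4 bases between (5.85% of promoters), the GAS TTCNNNGAA (7.02%), the CRE TGACGTCA (1.55%), the ATF4 site TGATGNAA (3.45%) and TATAAA (12.4%) were searched on both strands and matched none of these 4 windows. The E-box and the CRE read the same on both strands. The Odc1 window holds 185 bases and the others 250, and GC content was 62.4% for Slc7a1, 77.8% for Odc1, 75.6% for Ass1 and 47.2% for Sms.

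Elicitation by thioglycollate was then compared. In Thio against PBS, Arg2, Asl and Sms were called higher and Slc7a2, Srm and Ass1 lower, so 6 of 10 passed, where 44.5% of all genes passed, 20.2% higher and 24.2% lower. Arg2, above background in elicited cells alone, had to differ on the processed intensities here and between Thio+IL-4c and IL-4c, and is given with bounds. The arrays did not overlap for 6 genes, beside 42.6% of all genes. With slide as a block 5 passed, beside 29.6% of all genes, and without Thio 1 8 passed, beside 68.2%. On the log2 values that the authors deposited 4 passed, 2 higher and 2 lower, beside 46.3% of all genes, with Arg2 and Ass1 lost. Between Thio+IL-4c and IL-4c, 7 of the 10 genes passed, 5 higher and 2 lower, where 70.1% of all genes passed, 27.9% higher and 42.2% lower, so this count is at the background and is no result about these genes. The same holds for the 7 genes whose arrays did not overlap, beside 72.6% of all genes. With slide as a block 5 passed, 3 higher and 2 lower, beside 26.7% of all genes. On the log2 values that the authors deposited, 3 were higher and 3 lower, beside 73.1% of all genes. The median over all genes was -0.21 in that comparison, and -0.43 in the authors' table.

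**Figure D2:**
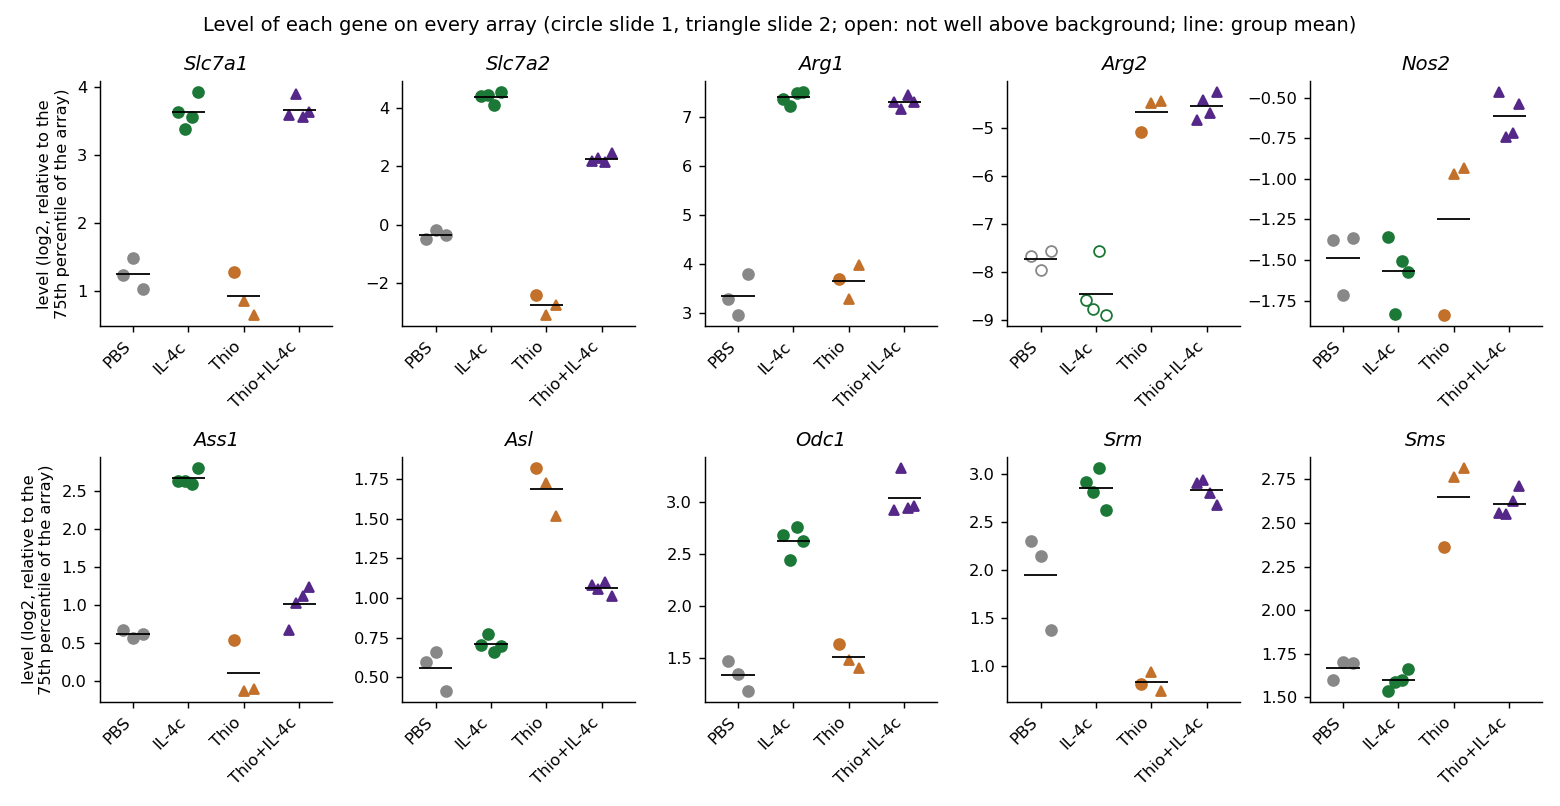
Level of the 10 genes on each of the 14 arrays (vertical axes, log2 relative to the 75th percentile of the array, a scale of its own per gene) in the 4 groups; circles are arrays of slide 1, triangles of slide 2, open symbols are not well above background, and lines are group means. Arg1 sits at 2.96 to 3.98 on the arrays without IL-4c and at 7.17 to 7.52 on those with it, and Arg2 is open on every resident array and filled on every elicited one.

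Slc7a1 encodes CAT1, a cationic amino acid transporter that carries arginine, lysine and ornithine. It is a protein-coding gene at chr5:148327410-148399904 of the mouse assembly GRCm38.p6. Slc7a1 stood at 1.24, 1.49 and 1.03 on the PBS arrays, and at 3.64, 3.39, 3.57 and 3.93 on the IL-4c arrays. It stood at 1.29, 0.86 and 0.65 on the Thio arrays, and at 3.59, 3.90, 3.57 and 3.64 on the Thio+IL-4c arrays. Every array with IL-4c lay above every array without it. The rise with IL-4c was 2.38 in resident cells (SE 0.18, 5.20-fold, limma adjusted p = 1.2e-06) and 2.74 in elicited cells (SE 0.18, 6.69-fold, adjusted p = 3.4e-07), and 2.92 without Thio 1. The interaction was 0.36, with a 95% interval of -0.19 to 0.92. With all arrays, resident and elicited cells were not called different for Slc7a1 with or without IL-4c. Thio+IL-4c and IL-4c differed by 0.04 (95% interval -0.32 to 0.41, adjusted p = 0.83). Thio and PBS differed by -0.32 (SE 0.19, adjusted p = 0.18), and by -0.50 without Thio 1 (adjusted p = 0.027), but by 0.03 with slide as a block (adjusted p = 0.94).

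Slc7a2 encodes CAT2, the related transporter whose transcription is known to be induced in activated macrophages. The gene lies at chr8:40862341-40922070. Slc7a2 stood at -0.48, -0.20 and -0.36 in PBS, and at 4.41, 4.44, 4.09 and 4.53 in IL-4c. Its Thio levels were -2.41, -3.09 and -2.75, and its Thio+IL-4c levels 2.19, 2.26, 2.14 and 2.44. No array of any group overlapped with an array of another, and the order was IL-4c, Thio+IL-4c, PBS and Thio from high to low. IL-4c raised it by 4.71 in resident cells (SE 0.16, limma adjusted p = 3.9e-09) and by 5.01 in elicited cells (SE 0.16, adjusted p = 2.6e-09). The interaction was 0.30 (95% interval -0.20 to 0.81, adjusted p = 0.33). Elicited cells were lower both without IL-4c (-2.41, SE 0.17, adjusted p = 6.7e-07) and with it (-2.11, SE 0.15, adjusted p = 4.4e-07). These were -2.07 and -1.60 with slide as a block (adjusted p of 1.8e-05 and 0.00071), both of which rest on Thio 1, and the former was -2.58 without Thio 1.

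Arg1 encodes the cytosolic liver-type arginase and lies at chr10:24915207-24927470. Its levels were 3.28, 2.96 and 3.80 in PBS and 7.39, 7.23, 7.51 and 7.52 in IL-4c. Among elicited cells they were 3.71, 3.28 and 3.98 in Thio and 7.31, 7.17, 7.45 and 7.33 in Thio+IL-4c. The arrays fell into a low and a high set that did not overlap, split by IL-4c, and within each set resident and elicited arrays overlapped. The rise was 4.06 in resident cells (SE 0.20, limma adjusted p = 5.7e-08) and 3.65 in elicited cells (SE 0.20, adjusted p = 9.3e-08), and 3.68 without Thio 1. Thio differed from PBS by 0.31 (95% interval -0.16 to 0.78, adjusted p = 0.25), and Thio+IL-4c from IL-4c by -0.10 (95% interval -0.50 to 0.31, adjusted p = 0.66). The interaction was -0.41 (95% interval -1.03 to 0.22, adjusted p = 0.30). In a fit on the log2 values of the authors' deposited table, however, Arg1 passed in both, at -0.47 for Thio+IL-4c against IL-4c (adjusted p = 0.032) and -0.93 for the interaction (adjusted p = 0.015).

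Arg2 encodes the mitochondrial arginase and lies at chr12:79130788-79156301. Arg2 was well above background on none of the 7 resident arrays and on all 7 elicited arrays. It passed the filter on dim probes through the elicited arrays alone, so a difference between the kinds of cell was bound to be found on the processed intensities. IL-4c and PBS are both below background and give no fold. The levels were -7.66, -7.96 and -7.57 in PBS and -8.59, -8.78, -7.56 and -8.91 in IL-4c. In elicited cells they were -5.09, -4.48 and -4.44 in Thio and -4.84, -4.42, -4.70 and -4.26 in Thio+IL-4c. All elicited arrays, Thio 1 included, lay above all resident arrays. Because the resident levels are bounds, the differences on the processed intensities are given as at least 5.75-fold for Thio over PBS and at least 10.8-fold for Thio+IL-4c over IL-4c. These bounds do not hold under other background corrections. No p-value is set beside these bounds, because on the processed intensities the filter made the differences certain. The bound sets the bright group's mean against the lowest signal well above background on each dim array, or the probe's own signal where that was higher. On the authors' deposited log2 table, Thio minus PBS turned to -0.07 (limma adjusted p = 0.69) and Thio+IL-4c minus IL-4c was 0.73. With normexp and quantile normalization the fitted differences of Arg2 were 0.82 and 0.87, so its size depends on the background correction. Thio+IL-4c and Thio differed by 0.12 (95% interval -0.54 to 0.77, adjusted p = 0.77).

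**Figure D3:**
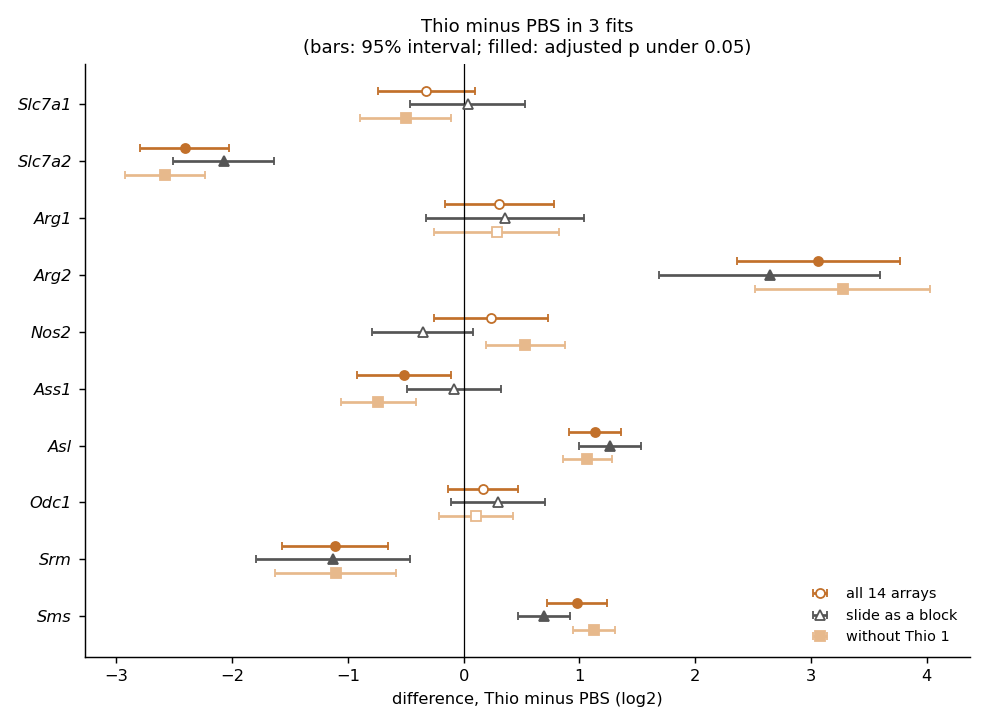
Log2 difference Thio minus PBS (horizontal axis) for each of the 10 genes in 3 fits: all 14 arrays, slide as a block (which compares Thio 1 with PBS), and without Thio 1. Bars are 95% intervals of the limma fit and filled points have an adjusted p under 0.05. Slc7a2, Arg2, Asl, Srm and Sms are filled in all 3 fits, Arg2 being bound to differ by the filter. Nos2, Slc7a1 and Ass1 are filled in some fits and Arg1 and Odc1 in none.

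Nos2 encodes inducible nitric oxide synthase, which competes with arginase for arginine, and lies at chr11:78920787-78960226. Nos2 was well above background on all 14 arrays, at -1.38, -1.72 and -1.36 in PBS and -1.36, -1.83, -1.51 and -1.58 in IL-4c. Its levels were -1.84, -0.97 and -0.93 in Thio and -0.47, -0.74, -0.72 and -0.54 in Thio+IL-4c. The Thio+IL-4c arrays lay above all others, and Thio 1 lay with the resident arrays of its slide, below Thio 2 and Thio 3. IL-4c and PBS differed by -0.08 (95% interval -0.54 to 0.38, limma adjusted p = 0.84). The difference between Thio+IL-4c and Thio was 0.63 (SE 0.21, adjusted p = 0.032), and 0.34 without Thio 1 (adjusted p = 0.094), so the call was lost. The call was lost as well without Thio+IL-4c 1 or Thio+IL-4c 4 (0.58 and 0.61, adjusted p of 0.071 and 0.070). Thio+IL-4c exceeded IL-4c by 0.95 (SE 0.19, adjusted p = 0.0011). In the blocked fit, which rests on Thio 1 and supports nothing by itself, the difference was 0.06 (adjusted p = 0.88). Thio minus PBS was 0.24 (adjusted p = 0.40), 0.53 without Thio 1 (adjusted p = 0.010) and -0.35 with slide as a block (adjusted p = 0.22). For Nos2, slide and group therefore cannot be told apart.

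Ass1 encodes argininosuccinate synthase, which joins citrulline and aspartate, and lies at chr2:31470270-31520670. Ass1 stood at 0.68, 0.56 and 0.63 in PBS and at 2.64, 2.64, 2.59 and 2.81 in IL-4c on its brighter probe. Its elicited levels were 0.54, -0.13 and -0.10 in Thio and 0.67, 1.02, 1.13 and 1.24 in Thio+IL-4c. The IL-4c arrays stood above all others, and the lowest Thio+IL-4c array overlapped with PBS. IL-4c raised Ass1 by 2.05 in resident cells (SE 0.17, limma adjusted p = 3.1e-06) and by 0.91 in elicited cells (SE 0.17, adjusted p = 0.0012), the smaller effect that the interaction called. Without Thio 1 the elicited rise was 1.13 and the interaction -0.92. The other Ass1 probe rose by 1.93 and 1.13, and its interaction of -0.80 did not pass (adjusted p = 0.28). On both probes the larger rise was in resident cells. The other probe stood at -1.10 on Thio 1, apart from 0.72 and 0.64 on Thio 2 and Thio 3. Without Thio 1 its means were 0.68 in Thio and 1.22 in Thio+IL-4c, so its elicited rise is smaller without that array. For this probe neither the elicited rise nor the interaction was tested without Thio 1. The probes also disagreed on Thio against PBS without Thio 1. The other probe was then higher in Thio (0.68 against 0.15 in PBS), and the brighter one lower (-0.12 against 0.62). Ass1 was lower in Thio+IL-4c than in IL-4c (-1.65, SE 0.16, adjusted p = 5.1e-06), and the value that rests on Thio 1, with slide as a block, was -0.997 (adjusted p = 0.0078). The fall in Thio against PBS, -0.52 (SE 0.19, adjusted p = 0.041), was not called on the other probe (-0.07, adjusted p = 0.90) or with slide as a block (-0.08, adjusted p = 0.80), and was -0.74 without Thio 1 (adjusted p = 0.0010). It also lost its call when Thio 2 or Thio 3 was left out (-0.40 and -0.42, adjusted p = 0.15 for both), when any array of PBS or IL-4c was left out (adjusted p of 0.051 to 0.094), and without Thio+IL-4c 2 or 3 (adjusted p of 0.054 and 0.051).

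Asl encodes argininosuccinate lyase, which releases arginine and fumarate, and lies at chr5:130011258-130024381. Asl levels were 0.59, 0.66 and 0.41 in PBS and 0.71, 0.77, 0.66 and 0.70 in IL-4c. They were 1.82, 1.73 and 1.52 in Thio and 1.09, 1.06, 1.10 and 1.02 in Thio+IL-4c. From high to low the groups ran Thio, Thio+IL-4c, IL-4c and PBS without overlap, IL-4c and PBS being next to touching. These last differed by 0.15 (SE 0.10, limma adjusted p = 0.28), while Thio exceeded PBS by 1.13 (SE 0.10, adjusted p = 4.5e-06), also on the arrays of slide 1 (1.27, adjusted p = 1.8e-05). In elicited cells IL-4c lowered Asl (-0.63, SE 0.10, adjusted p = 0.00026), also without Thio 1 (-0.56, adjusted p = 0.00048). Asl thus went the opposite way to Ass1 under IL-4c in elicited cells, a difference between probes that was not tested. Thio+IL-4c exceeded IL-4c by 0.35 (SE 0.09, adjusted p = 0.0039), and by 0.55 in the blocked fit that rests on Thio 1 (adjusted p = 0.018). The difference was 0.01 on log2 values that the authors deposited (adjusted p = 0.92). That table gave the interaction as -1.22 (adjusted p = 0.00015).

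Odc1 encodes ornithine decarboxylase, the regulated first enzyme of polyamine synthesis, and lies at chr12:17544808-17551502. Its brightest probe stood at 1.48, 1.35 and 1.18 in PBS and at 2.68, 2.44, 2.77 and 2.63 in IL-4c. Odc1 levels in elicited cells were 1.64, 1.48 and 1.40 in Thio and 2.93, 3.33, 2.95 and 2.96 in Thio+IL-4c. The groups with IL-4c lay above those without it with no overlap, and Thio+IL-4c 2 was the highest array. The rise was 1.29 in resident cells (SE 0.13, 2.45-fold, limma adjusted p = 1.1e-05) and 1.54 in elicited cells (SE 0.13, 2.90-fold, adjusted p = 2.3e-06). The other probes of Odc1 rose too, by 1.56 and 0.56 in resident cells and by 1.37 and 1.98 in elicited cells. They disagreed on the interaction: it was 0.24 on the brightest probe (adjusted p = 0.33), -0.19 on another (adjusted p = 0.62) and 1.42 on the remaining probe (adjusted p = 0.00029). That last probe also fell in Thio against PBS (-0.73, adjusted p = 0.0029), where the brightest differed by 0.17. Thio+IL-4c exceeded IL-4c by 0.41 (SE 0.12, adjusted p = 0.0090), a call lost on the log2 values that the authors deposited (0.04, adjusted p = 0.78). In the blocked fit that rests on Thio 1 the difference was larger but not called (0.61, adjusted p = 0.070). Quantile normalization gave 0.66, and 0.68 after normexp background correction.

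Srm encodes spermidine synthase and lies at chr4:148591513-148594619. Srm stood at 2.31, 2.15 and 1.38 in PBS and at 2.92, 2.81, 3.06 and 2.62 in IL-4c. Its Thio levels were 0.82, 0.93 and 0.74, and its Thio+IL-4c levels 2.91, 2.93, 2.80 and 2.68. The Thio arrays were the lowest, the PBS arrays were in the middle with PBS 3 below the other two, and the groups with IL-4c overlapped at the top. IL-4c raised Srm by 0.91 in resident cells (SE 0.19, limma adjusted p = 0.0031) and by 2.00 in elicited cells (SE 0.19, 4.00-fold, adjusted p = 7.1e-06). Thio was below PBS (-1.11, SE 0.21, adjusted p = 0.0013), also with slide as a block (-1.13, adjusted p = 0.015). Under IL-4c the elicited and resident cells differed by -0.02 (95% interval -0.42 to 0.37, adjusted p = 0.92). The other Srm probe gave 0.96, 2.08, -1.18 and -0.06 for the same 4 differences, and an interaction of 1.12 (adjusted p = 0.0099). The interaction on the brightest probe was 1.09, and 0.65 on the log2 values that the authors deposited (adjusted p = 0.082). Without PBS 3 the resident rise on that probe was 0.63, still called, and the interaction 1.37, so their sizes depend on that array.

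Sms encodes spermine synthase, is on the X chromosome and lies at chrX:157443851-157492287. Sms levels were 1.60, 1.70 and 1.70 in PBS and 1.54, 1.59, 1.60 and 1.66 in IL-4c. They were 2.36, 2.76 and 2.82 in Thio and 2.55, 2.55, 2.63 and 2.71 in Thio+IL-4c. Elicited arrays lay above resident arrays with no overlap, and Thio 1 was the lowest of the elicited arrays. Thio exceeded PBS by 0.98 (SE 0.12, 1.97-fold, limma adjusted p = 5.2e-05), by 0.69 with slide as a block (adjusted p = 0.00044) and by 1.12 without Thio 1. Thio+IL-4c exceeded IL-4c by 1.01 (SE 0.10, adjusted p = 7.7e-06), by 0.58 in the blocked fit that rests on Thio 1 (adjusted p = 0.0061) and by 0.66 on the log2 values that the authors deposited (adjusted p = 0.00017). The other probes also rose in Thio, by 1.74 and 0.93. On the IL-4c effect the probes of Sms disagreed. It was -0.07 in resident and -0.04 in elicited cells on the brightest probe, 0.68 (adjusted p = 0.00064) and -0.27 (adjusted p = 0.086) on another, and -0.12 and 0.49 (adjusted p = 0.0017) on the remaining probe. The interaction was accordingly 0.03, -0.94 (adjusted p = 0.00089) and 0.61 (adjusted p = 0.0052), and no effect of IL-4c on Sms can be given for the gene as a whole.

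**Figure D4:**
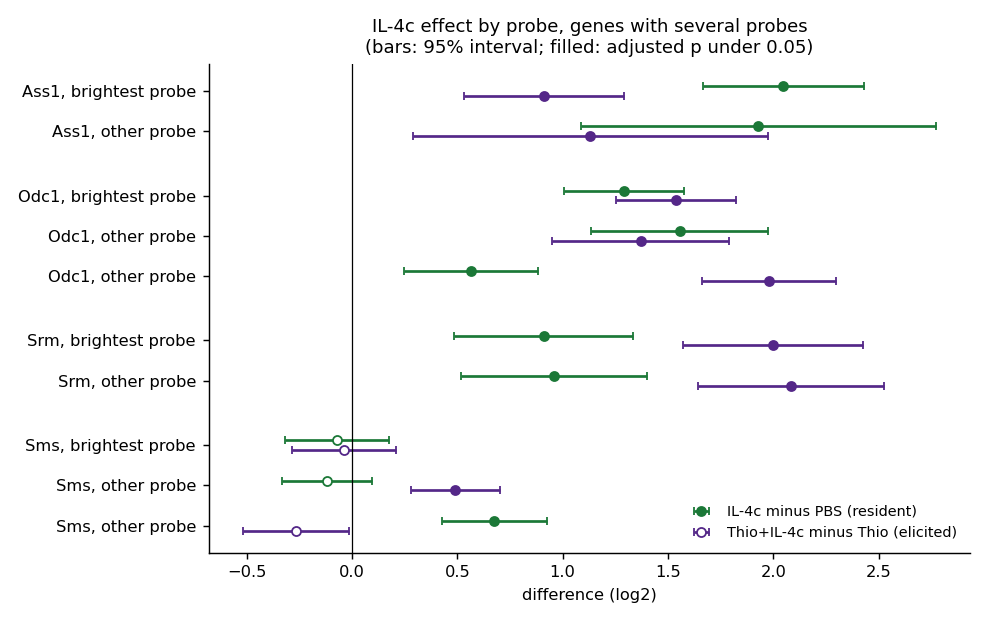
Log2 difference made by IL-4c (horizontal axis) on each probe of the 4 genes with several probes, in resident cells (IL-4c minus PBS) and elicited cells (Thio+IL-4c minus Thio). Bars are 95% intervals of the limma fit over all named probes and filled points have an adjusted p under 0.05. Every probe of Ass1, Odc1 and Srm is filled above 0 in both, and the probes of Sms differ in sign. The values include Thio 1. On that array the dimmer Ass1 probe stood at -1.10, against 0.72 and 0.64 on Thio 2 and Thio 3.

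Across the 14 arrays several of the 10 genes had like profiles, given here as a description, since the arrays share groups and slides. Arg1 correlated with Slc7a1 at r = 0.97 and with Odc1 at 0.94, and Slc7a1 with Odc1 at 0.96 (n = 14 arrays each). Slc7a2 correlated with Slc7a1 at 0.92, with Ass1 at 0.91, with Srm at 0.91 and with Arg1 at 0.89. The value was 0.89 for Slc7a1 with Srm and 0.70 for Ass1 with Srm, so these genes did not part into separate sets. No correlation is given for Arg2, which was below background on 7 of the arrays.

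By a rule that took the 3 genes with the highest Pearson correlation over the 14 arrays, among 7359 genes with an SD of at least 1, the profile of Arg1 was most like those of Ddx4 (0.99), a germline RNA helicase, Psat1 (0.99), which makes phosphoserine, and Atf5 (0.98), a bZIP transcription factor. Psat1 stood on average at 0.09 in PBS, 3.35 in IL-4c, -0.12 in Thio and 3.35 in Thio+IL-4c. The nearest to Odc1 were Clcn5, an endosomal chloride transporter, Cebpe, a myeloid transcription factor, and Ear10, an eosinophil-associated ribonuclease, at 0.99, 0.98 and 0.98. Ear10 stood at -1.11, 4.89, -0.29 and 6.68 in the same order of groups. The nearest to Nos2 were Platr14 (0.98), Rasl10a (0.97) and Olfr522 (0.97). Platr14 averaged -7.61 in PBS and -7.94 in IL-4c, so dim that its resident values may lie below background. Slide and group cannot be told apart for Nos2, nor can their parts in these likenesses.

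Genes around this core were taken from 5 wider lists with 60 genes measured. Their counts stand beside the shares of all genes called, which were 32.2% in IL-4c against PBS (16.9% higher and 15.3% lower) and 39.4% in Thio+IL-4c against Thio (16.2% higher and 23.1% lower; 42% in all without Thio 1). In the list of polyamine synthesis, turnover and control, 4 of 20 measured genes rose and 6 fell in IL-4c against PBS, and 3 rose and 10 fell in Thio+IL-4c against Thio (6 and 10 without Thio 1). The median difference of the list was 0.04 and -0.35, beside -0.01 and 0.03 over all genes. Eif5a, whose product carries the hypusine made from spermidine, rose with IL-4c by 0.92 (SE 0.12, limma adjusted p = 0.00010) in resident and 0.99 (SE 0.12, adjusted p = 4.7e-05) in elicited cells, and Mtap, which salvages the methylthioadenosine left by polyamine synthesis, by 0.87 and 0.68, the latter not called on the log2 values that the authors deposited (0.50, adjusted p = 0.060). Atp13a2, a lysosomal polyamine exporter, fell with IL-4c in resident (-1.46) and in elicited cells (-2.35). Smox, the spermine oxidase, fell in resident cells (-2.80, SE 0.18, adjusted p = 4.4e-07) and less in elicited cells (-0.73, adjusted p = 0.0076), an interaction of 2.07 (adjusted p = 0.00010; 2.16 without Thio 1). Slc18b1, a vesicular polyamine transporter, and Paox, the polyamine oxidase, differed by 0.03 and -0.08 in resident cells and fell in elicited cells (-2.12 and -1.51). Azin1, the antizyme inhibitor that protects ornithine decarboxylase, rose in Thio against PBS by 1.60 (SE 0.17, adjusted p = 1.7e-05), as did its other probes (0.93 and 1.99). Of the polyamine list 6 genes rose and 5 fell in Thio against PBS, 6 and 1 with slide as a block and 6 and 6 without Thio 1, beside 44.5%, 29.6% and 68.2% of all genes, so these counts are near or below the background.

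In the list of ornithine and proline genes, 5 of 9 measured genes rose and 3 fell in IL-4c against PBS, and 4 rose and 2 fell in Thio+IL-4c against Thio (5 and 2 without Thio 1), beside 32.2% and 39.4% of all genes (42% without Thio 1). Aldh18a1, which makes the precursor shared by proline and ornithine, rose by 3.25 in resident (SE 0.21, limma adjusted p = 3.8e-07) and by 2.13 in elicited cells (SE 0.21, adjusted p = 7.9e-06). Aldh4a1, which completes the breakdown of proline to glutamate, rose by 1.71 in resident cells and fell in elicited cells (-1.09), an interaction of -2.81 (SE 0.20, adjusted p = 2.2e-06). P4ha2, a prolyl hydroxylase of collagen, went the other way, falling in resident cells (-1.44) and rising by 1.75 in elicited cells, an interaction of 3.19 (SE 0.32, adjusted p = 2.2e-05). P4ha2 also fell in Thio against PBS (-4.45, and -4.48 with slide as a block).

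Arginine is also spent on creatine. Gatm, the amidinotransferase that takes the amidino group of arginine for it, stood at -3.13 to -2.84 in PBS, 2.59 to 3.13 in IL-4c, -1.37 to -0.15 in Thio and 2.10 to 3.03 in Thio+IL-4c. It rose with IL-4c by 5.84 in resident cells (SE 0.28, limma adjusted p = 4.6e-08) and by 3.39 in elicited cells (SE 0.28, adjusted p = 1.9e-06), and by 3.72 without Thio 1. Slc6a8, the creatine transporter, stood at -3.11 to -2.56 in PBS and 4.58 to 5.16 in Thio, a rise of 7.64 (SE 0.20, adjusted p = 4.6e-10). It fell with IL-4c in resident (-1.30) and elicited cells (-3.43). Of 7 genes in the creatine list, 1 rose and 2 fell in IL-4c against PBS, and 1 rose and 2 fell in Thio+IL-4c against Thio (1 and 4 without Thio 1), beside 32.2% and 39.4% of all genes (42% without Thio 1). With all arrays, 3 of 7 is near the background. The count without Thio 1 is above it, and nothing is read from so short a list.

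The list of arginine transport and supply beyond the core held 12 measured genes, of which 2 rose and 1 fell in IL-4c against PBS, and none rose and 2 fell in Thio+IL-4c against Thio (1 and 2 without Thio 1). Both counts are below the shares of all genes, 32.2% and 39.4% (42% without Thio 1). Slc7a7, the light chain of the exchanger y+LAT1, rose by 1.06 in resident cells (SE 0.11, limma adjusted p = 1.3e-05) and fell in elicited cells (-0.50, SE 0.11, adjusted p = 0.0029), an interaction of -1.56. Slc3a2, its heavy chain partner, rose by 0.59 in resident cells (adjusted p = 0.024), a call lost after quantile normalization (0.43). In the list of nitric oxide and tetrahydrobiopterin, 2 of 12 measured genes rose and 1 fell in IL-4c against PBS, and 2 rose and 2 fell in Thio+IL-4c against Thio (4 and 2 without Thio 1), near or below the 32.2% and 39.4% of all genes (42% without Thio 1). Qdpr, which regenerates the cofactor tetrahydrobiopterin, rose by 0.72 in resident cells and fell in elicited cells (-0.58), an interaction of -1.29 (adjusted p = 4.2e-05), and Pts, which acts in its synthesis, fell in resident (-0.55) and elicited cells (-0.86), the former not called on the log2 values that the authors deposited (-0.19, adjusted p = 0.26).

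**Figure D5:**
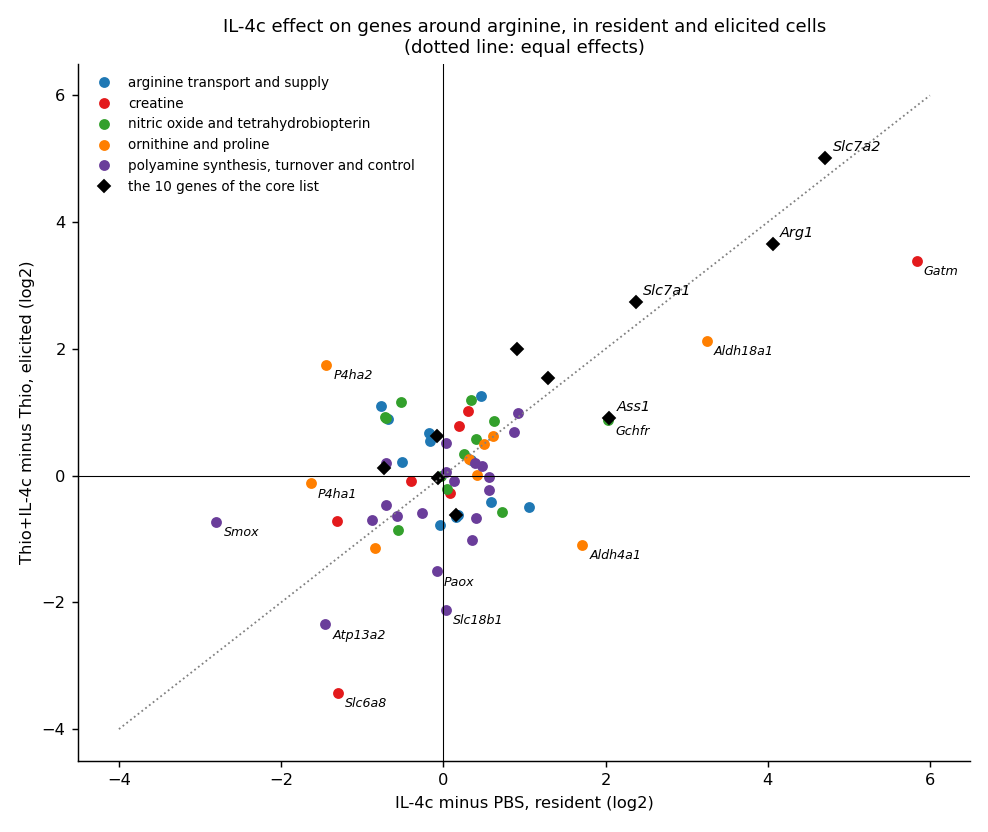
Log2 difference made by IL-4c in resident cells (horizontal axis, IL-4c minus PBS) and in elicited cells (vertical axis, Thio+IL-4c minus Thio) for the 10 genes (black diamonds) and 60 genes of 5 wider lists (coloured points, 1 per gene); the dotted line marks equal effects. Slc7a2 (4.71 and 5.01) and Arg1 (4.06 and 3.65) lie near the line, Gatm (5.84 and 3.39) lies below it, and Aldh4a1 and P4ha2 lie where the signs differ.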

How the data were processed

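Levels of 10 genes of arginine and polyamine metabolism were taken from 14 single-dye Agilent arrays (Cy3), 3 PBS, 4 IL-4c, 3 Thio and 4 Thio+IL-4c. Per the file headers, the deposited intensity values are processed signals that Agilent Feature Extraction had background-subtracted and detrended within each array, with no scaling between arrays. The submitters' processing notes name Feature Extraction 11.5 and limma. The authors' deposited table of log2 values, used as an alternative, had a median of 9.234 on every array; its log base was inferred by setting it against the log2 median spot signal (r of 0.989 to 0.995), and its background correction and reference are not given in the sources used here.

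Control spots and spots marked as outliers were left out, spots of a probe were averaged, and the log2 of the array's 75th percentile was subtracted. Probes were named through their RefSeq accession with the RefSeq gene table of GRCm38.p6: of 55681 probes, 27235 had 1 symbol and 28446 stayed unnamed. Probes that were well above background on fewer than 3 arrays were dropped, and the brightest remaining probe stood for its gene, which gave 20346 genes. One limma fit (version 3.58.1 in R 4.3.3) with 4 group means over all 14 arrays gave 5 contrasts with Benjamini-Hochberg adjustment over all genes, and it was tested on simulated data. Probe values come from the same fit over all named probes, with adjustment over those probes. The number of arrays limits the precision. The genes named from the wider lists are among the 2 with the largest rise and the 2 with the largest fall among called genes of a list in a comparison. The members and lists were chosen with earlier results of these data known.

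Alternatives were quantile normalization, normexp on the median spot and background signals, the authors' table, other filters, the mean of a gene's probes, slide or replicate number as a block, array weights, fits on the groups compared alone, and each array left out.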

Additional observations from a re-analysis of the deposited data

Results flagged for a closer look

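Odc1 had 1 array far from the others of its group. In Thio+IL-4c the gap from array 2 (3.33) to the next (2.96) was 0.919 of the range of the group, above Dixon's limit for 4 arrays. Among the 20 sets of 4 arrays tested (10 genes in 2 groups), chance gives such a gap in about 1 of 20.

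The IL-4c effect differed between elicited and resident cells for 3 genes by the interaction term of limma, which called 32.7% of all genes. Ass1 gave -1.14 (adjusted p = 0.0039), Asl -0.78 (adjusted p = 0.00097) and Srm 1.09 (adjusted p = 0.0097). On the log2 values that the authors deposited Srm gave 0.65 and was not called (adjusted p = 0.082).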

How the results depend on the processing

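Members called numbered 6 to 7 in IL-4c against PBS, 5 to 8 in Thio against PBS, 7 to 8 in Thio+IL-4c against Thio, 7 in Thio+IL-4c against IL-4c and 3 to 4 in the interaction as each array was left out, and 5 in the interaction with normexp and quantile normalization. For most of these fits the share of all genes called is not given here. In Thio against PBS that share was 44.5% with all arrays and 68.2% without Thio 1, so the counts alone show no stability. Fits on the groups compared alone were not run for the interaction, which uses all groups. Differences that were not called changed sign as follows. Quantile normalization turned Nos2 in IL-4c against PBS (0.0085), Arg2 (-0.16) and Sms (0.013) in Thio+IL-4c against Thio, and Srm in Thio+IL-4c against IL-4c (0.23). With normexp these were -0.044 for Arg2, 0.025 for Sms and 0.29 for Srm. The authors' deposited log2 table turned Nos2 (0.064) and Sms (0.22) in IL-4c against PBS, Slc7a1 in Thio+IL-4c against IL-4c (-0.30), and the interactions of Slc7a1 (-0.029), Slc7a2 (-0.33), Odc1 (-0.20) and Sms (-0.40); it also turned the called Arg2 in Thio against PBS (-0.075). The mean of all probes turned Sms in IL-4c against PBS (0.16), in Thio+IL-4c against Thio (0.063) and in the interaction (-0.10), and Odc1 in Thio against PBS (-0.12). Slide as a block turned Nos2 (-0.35) and Slc7a1 (0.034) in Thio against PBS, Arg2 in Thio+IL-4c against Thio (-0.095) and the interaction of Sms (-0.11), and array weights gave -0.068 for that Arg2 and -0.10 for that Sms. With 1 array left out, Nos2 in IL-4c against PBS ranged from -0.20 to 0.0052, Arg2 from -0.095 to 0.23 and Sms from -0.18 to 0.048 in Thio+IL-4c against Thio, Slc7a1 from -0.039 to 0.14 and Srm from -0.099 to 0.047 in Thio+IL-4c against IL-4c, and the interaction of Sms from -0.11 to 0.12. The cause of these turns was not tested. The replicate numbers do not pair the arrays: deviations of 19 same-numbered pairs correlated at a median of -0.005, and 2 of 14 arrays correlated best with an array of their own number. With the replicate block 6, 5, 7, 7 and 3 members were called in the 5 comparisons, again without the share of all genes, so nothing is read from these counts. Arg2 in resident cells lies below background, which limits its differences to bounds that hold for the processed intensities only.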
